A study of Mus musculus with 28 samples.

Results

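Bile acid synthesis enzymes convert cholesterol into bile acids in the liver, and 6 of their cytochrome P450 genes, Cyp7a1, Cyp8b1, Cyp27a1, Cyp7b1, Cyp39a1 and Cyp46a1, are described here together with the sterol carrier gene Scp2. They were chosen by name: each of the 7 genes has 1 probe, printed as 3 spots, on an array of 120 gene probes. The array compared liver RNA of treated female C57BL/6 mice, 8 to 10 weeks old, with pooled liver RNA of saline-injected mice of the same strain. In the positive control 4 animals were given 60 mg/kg phenobarbital, which activates the nuclear receptor CAR, and on day 2 also β-naphthoflavone at 80 mg/kg, which binds the aryl hydrocarbon receptor. A further 5 animals received 25 mg/kg adefovir dipivoxil and 5 received 25 mg/kg tenofovir disoproxil by intraperitoneal injection on each of 3 days. Both are prodrugs of antivirals that resemble adenosine monophosphate. The animals were killed on day 4, 24 hours after their last dose. The saline RNA is a pool and counts as 1 control sample. The sample labels give it 10 animals and the treatment protocol 5, and its own spread enters no test.

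Bile acids are made along 2 routes. In the classic route Cyp7a1, cholesterol 7α-hydroxylase, carries out the rate-limiting step, and Cyp8b1, the sterol 12α-hydroxylase, then sets the share of cholic acid among the products. In the alternative route Cyp27a1, a mitochondrial enzyme, hydroxylates the sterol side chain, and Cyp7b1 hydroxylates the resulting oxysterol at its 7α position. Cyp39a1 is a 7α-hydroxylase with a preference for 24-hydroxycholesterol, the oxysterol that Cyp46a1 makes, chiefly in neurons. Scp2 encodes both sterol carrier protein 2 and the peroxisomal thiolase SCPx, which shortens the side chain of bile acid precursors. Transcription of Cyp7a1 and Cyp8b1 is known to be held down by bile acids returning to the liver, through the receptor FXR (Nr1h4) and the repressor SHP (Nr0b2).

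RefSeq windows before a transcription start were found for 4 of the 7 genes, Cyp8b1, Cyp27a1, Cyp46a1 and Scp2. Those of Cyp8b1 and Scp2 are printed because both genes were above background on most arrays and passed the test in the positive control. Both calls depended on the processing, as given below. The 250 bases before the start are given 5′ to 3′ on the strand of the gene, with matches to the motifs named below in capitals.
Scp2: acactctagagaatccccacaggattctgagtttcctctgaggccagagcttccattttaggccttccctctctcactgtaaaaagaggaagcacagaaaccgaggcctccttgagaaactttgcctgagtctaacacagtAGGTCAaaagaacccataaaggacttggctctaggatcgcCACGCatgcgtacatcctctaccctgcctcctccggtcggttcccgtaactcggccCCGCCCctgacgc
Cyp8b1: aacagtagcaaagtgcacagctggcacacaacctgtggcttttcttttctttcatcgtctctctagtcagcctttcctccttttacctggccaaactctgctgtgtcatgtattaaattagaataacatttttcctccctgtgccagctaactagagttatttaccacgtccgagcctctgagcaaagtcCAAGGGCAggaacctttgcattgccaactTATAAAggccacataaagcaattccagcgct
In build GRCm38.p6 the Scp2 window is chr4:108118548-108118797 and the Cyp8b1 window chr9:121916306-121916555, both on the minus strand. The Scp2 window lies inside the gene (chr4:108043830-108144971), so it precedes an internal transcript start and not the 5′ end of the gene. The Cyp8b1 window adjoins the 5′ end of its gene (chr9:121914356-121916305). Both strands were searched for 5 motifs: the TATA box TATAAA, the GC box GGGCGG, the core GCGTG bound by the aryl hydrocarbon receptor, the nuclear receptor hexamer AGGTCA and the NR5A type site CAAGGNCA. The Scp2 window holds 1 hexamer on the gene's strand, and 1 core GCGTG and 1 GC box on the other strand. The Cyp8b1 window holds 1 TATA box and 1 NR5A type site, and neither the core GCGTG nor the hexamer. No match in these windows overlaps another. Of 32851 windows of this length, 28.2% hold the core GCGTG, 14% the hexamer, 32.7% the GC box, 12.4% the TATA box and 5.53% the NR5A type site. A match describes letters and not a bound site.

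Each antiviral animal had 2 arrays of opposite dye orientation. Each positive-control animal had 1, with its RNA in Cy3, and the file headers mark the Cy5 channel of those arrays, which holds saline RNA, as bad. RNA pooled from the same 4 positive-control animals was run on 4 more arrays, 2 per orientation. Of 120 probes, 63 to 84 stood above background in the treated channel and 9 to 29 in the saline channel of the single positive-control arrays. The antiviral arrays with treated RNA in Cy3 had 64 to 88 probes above background in the treated channel and 38 to 69 in the saline channel. The labelled tissue was borne out by 6 of 7 measured hepatocyte markers above background on most arrays. The 7 include Cyp7a1, the 1 marker that was not. Markers of biliary, immune, endothelial or stellate cells were not measured. In whole liver, fewer cells of a type and less RNA per cell cannot be told apart.

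The 7 genes differed in whether the array measured them at all. A probe was called above background when most of its spots exceeded the local background median by 2 SDs of that background. Signals are given below as the spot median over the local background median, so a value of 1 is no signal, and levels are not set against each other between probes. Scp2, Cyp27a1 and Cyp8b1 were above background in at least 1 channel on most arrays, and Cyp46a1 on none.

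**Figure D1:**
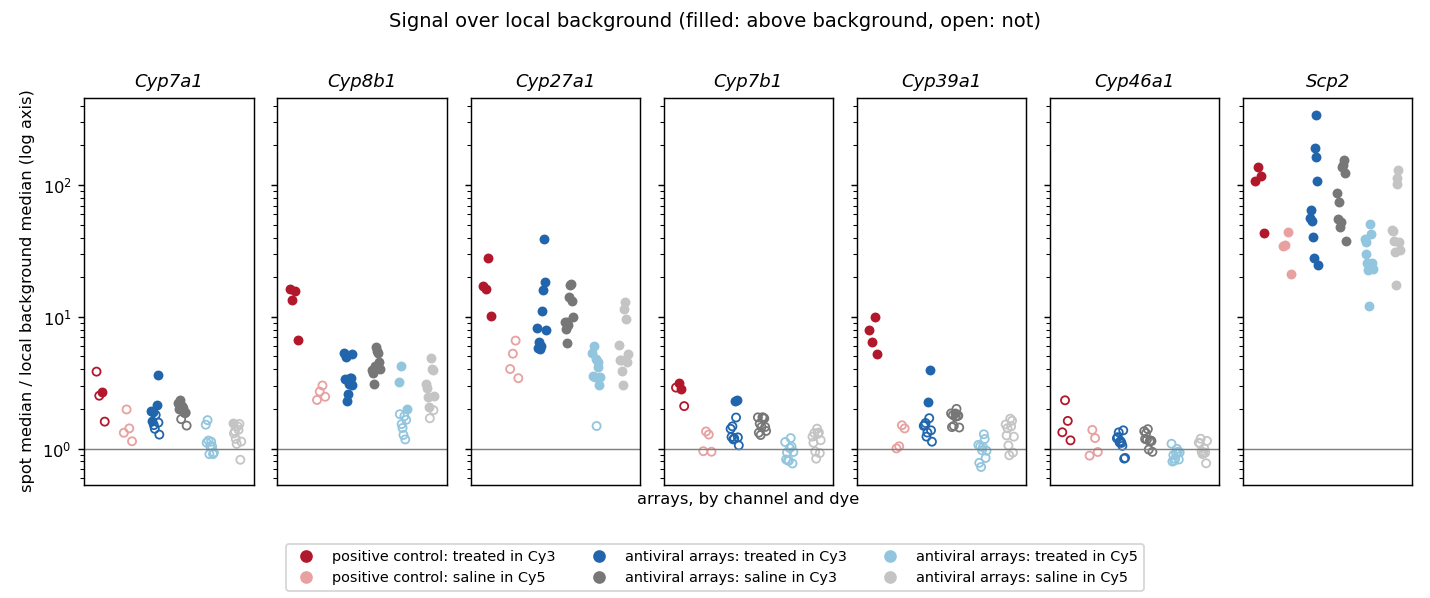
Signal of each gene as the spot median over the local background median, on a log axis, with 1 point per array and channel for the single positive-control and the antiviral arrays, coloured by channel and dye. Filled points are above background and open points are not; Scp2 is filled throughout and Cyp46a1 open throughout, and on antiviral arrays Cyp7a1 is filled mainly in Cy3.

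In the classic route, Cyp7a1 stood barely above background. On antiviral arrays its signal was called above background in 5 of 10 treated channels and 6 of 10 saline channels labelled with Cy3, but in 0 of 10 treated and 1 of 10 saline channels labelled with Cy5. Saline RNA in Cy3 gave 1.49 to 2.34 times background over these arrays (median 1.94), so whether this gene counted as measured moved with the dye. Cyp8b1 was above background in all 20 channels labelled with Cy3 on antiviral arrays, with saline RNA at 3.06 to 5.92 times background (median 4.12). In Cy5 it was above background in 3 of 10 treated and 8 of 10 saline channels.

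In the alternative route, Cyp27a1 was measured well and Cyp7b1 hardly. Cyp27a1 was above background in all Cy3 channels of the antiviral arrays and in 9 of 10 treated and 10 of 10 saline channels in Cy5. Saline RNA in Cy3 gave 6.32 to 17.6 times background (median 9.53). Cyp7b1 was above background in 2 of 20 treated channels of the antiviral arrays, both from tenofovir animals in Cy3, in 2 of 4 treated channels of the single positive-control arrays, and in 0 of 28 saline channels.

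Of the oxysterol enzymes, Cyp39a1 was detected mainly in positive-control RNA. It was above background in 4 of 4 treated channels and 0 of 4 saline channels of the single positive-control arrays, and in 2 of 4 treated and 0 of 4 saline channels of the pool arrays. On antiviral arrays it was above background in 2 of 20 treated and 1 of 20 saline channels. Cyp46a1 was above background in 0 of 28 treated and 0 of 28 saline channels. Scp2 was above background in all 28 treated and all 28 saline channels, with saline RNA in Cy3 at 37.8 to 155 times background (median 80.5).

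In the positive control, Cyp39a1 and Cyp8b1 passed the test as higher and, after loess normalization, Scp2 as lower. Cyp27a1 and Cyp7b1 did not pass it. Cyp7a1 and Cyp46a1 passed it with small negative values at or below background. Thus 5 of 7 genes passed limma's test at an adjusted p under 0.05, 2 higher and 3 lower. Of all 120 probes, 41.7% passed, 21.7% higher and 20% lower. The median log2 ratio was -0.10 over the 7 genes and 0.00 over all probes. For Cyp39a1 and Cyp8b1 the saline channel was above background on 0 of 4 arrays. The Cyp8b1 call held under 12 of 15 alternative settings and in 2 of 4 fits with an animal left out. For Cyp39a1 it held in 13 of 13 and 4 of 4. All ratios are log2 of treated over saline after loess normalization, and SDs are between animals.

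**Figure D2:**
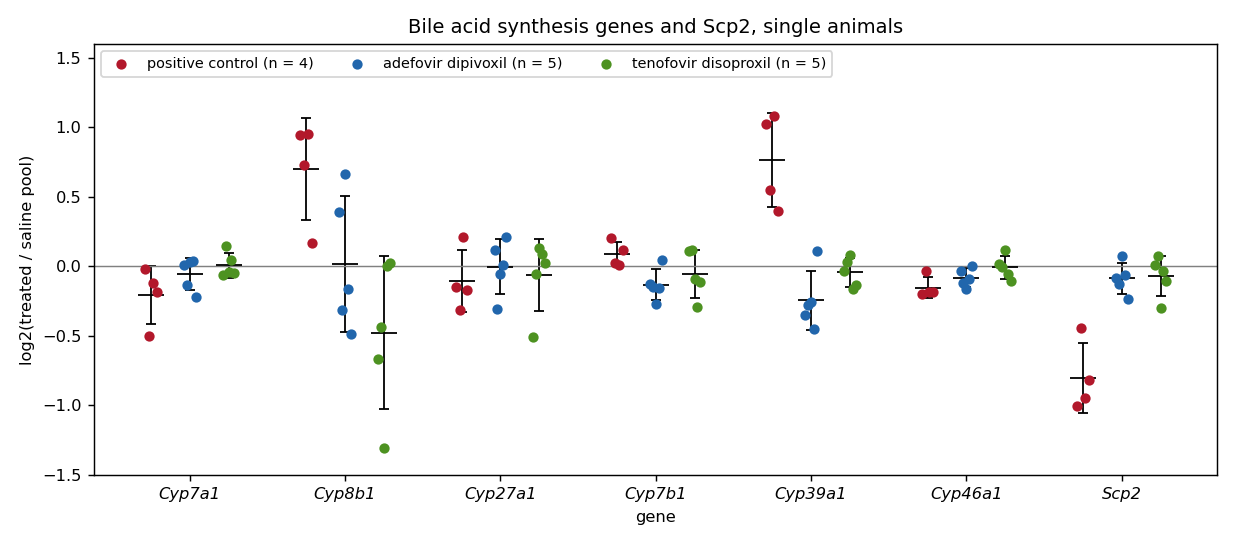
Log2 ratio of treated over saline pool for each gene (x axis), with 1 point per animal, and mean with SD. The positive control (n = 4) stands above 0 for Cyp8b1 and Cyp39a1 and below 0 for Scp2 in every animal, whereas the antiviral animals (n = 5 each) lie on both sides of 0 for Cyp8b1 and reach -0.51 for Cyp27a1 and -0.45 for Cyp39a1.

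Of the classic route, Cyp7a1 had log2 ratios of -0.02, -0.50, -0.12 and -0.18 in positive-control animals 1 to 4. The mean was -0.21 (SD 0.207, SE 0.0715, n = 4, adjusted p = 0.0292). All 4 values were negative only after the dye effect, measured on the antiviral arrays (0.17 for this gene), was subtracted. Before that the arrays of animals 1 to 4 gave 0.15, -0.33, 0.05 and -0.01, with a mean of -0.04. The treated channel was above background on 1 of 4 arrays and the saline channel on 0 of 4, so no fold is given. Of 12 alternative settings with no animal left out, 5 kept the call. The call was lost without animal 2 (-0.11, adjusted p = 0.184) or animal 4 (-0.21, adjusted p = 0.0665).

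Cyp8b1 had 0.95, 0.73, 0.95 and 0.17 in the same animals, a mean of 0.70 (SD 0.368, SE 0.215, 95% interval 0.24 to 1.16, n = 4, adjusted p = 0.0181). Animals 1, 2 and 3 were close together and animal 4 was low. Treated RNA gave 6.62 to 16.2 times background on these arrays, and saline RNA in the Cy5 channel 2.34 to 3.01 times, which was not above background on any of the 4. The mean normalized log2 levels were 8.80 in the treated and 8.31 in the saline channel. The lower limit on the ratio was under 1, and no fold is given. Without animal 1 the adjusted p was 0.0792, and without animal 3 it was 0.0736. Without subtracting the dye effect, measured on the antiviral arrays, the mean was 0.49 (adjusted p = 0.0678), and with the dye effect of the pool arrays it was 0.35 (adjusted p = 0.189).

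The alternative route showed no call. Cyp27a1 had -0.15, -0.32, 0.21 and -0.17, with a mean of -0.10 (SD 0.225, 95% interval -0.33 to 0.12, adjusted p = 0.45). Cyp7b1 had 0.20, 0.02, 0.01 and 0.12, with a mean of 0.09 (SD 0.0887, 95% interval -0.06 to 0.23, adjusted p = 0.315). Animals lay on both sides of 0 for Cyp27a1, whose saline channel was below background on all 4 arrays, and Cyp7b1 was mostly below background, so its narrow interval does not show an unchanged level.

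Cyp39a1 had 1.02, 0.55, 1.08 and 0.40 in the 4 animals. The mean was 0.76 (SD 0.341, SE 0.106, 95% interval 0.54 to 0.99, n = 4, adjusted p = 3.49e-05). Every positive-control animal lay above every antiviral animal, the highest of which had 0.11. Treated RNA gave 5.18 to 9.99 times background (median 7.23), and saline RNA a median of 1.23 times. The saline channel was below background on all 4 arrays and the lower limit on the ratio was under 1, so no fold is given here either. The call held without each of the 4 animals (0.66 to 0.89).

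Cyp46a1 lay between -0.20 and -0.04 in the 4 animals (mean -0.15, SE 0.05, adjusted p = 0.0225) with both channels below background on every array. Its ratio therefore measures no level of this RNA. Without animal 1, 3 or 4 its adjusted p was 0.0775, 0.0765 and 0.0752.

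Scp2 had -1.01, -0.44, -0.95 and -0.81 in the 4 animals, all negative and all below the lowest antiviral animal at -0.30. After loess it fell by 0.80 on the log2 scale (SD 0.253, SE 0.0838, 95% interval -0.98 to -0.62, n = 4, adjusted p = 1.53e-06), or 1.74-fold. Both channels were above background on each of the 4 arrays, treated RNA in Cy3 at 43.5 to 138 times and saline RNA in Cy5 at 21.1 to 44.4 times. The call held without each animal in turn (-0.92 to -0.74). Without loess it was lost: the mean was 0.16 (adjusted p = 0.41) with centring on the array median, and -0.34 to -0.27 with the other 3 centrings.

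The pool arrays hold RNA of the same animals and so add no new animals, but they exchange the dyes. With the treated pool in Cy3, Scp2 had log2 ratios of -0.67 and -0.48, and with the pool in Cy5 -1.32 and -1.66. It was negative on all 4 arrays and averaged -1.03 over both orientations, or 2.04-fold lower. Cyp8b1 had 0.79 and 0.55 with the pool in Cy3, and 0.07 and 0.68 in Cy5, a mean of 0.52. Cyp39a1 had 1.38 and 1.51 in Cy3, and 0.06 and 0.93 in Cy5, a mean of 0.97. Scp2, above background in both channels of all 4 arrays, thus kept the sign it had in the animals, and its size moved with the dye. Cyp8b1 and Cyp39a1 also had the same sign as in the animals. With the pool in Cy5, however, both were below background in both channels of each array, so those values do not bear out a sign. Cyp7a1 averaged -0.02, Cyp27a1 -0.06, Cyp7b1 0.30 and Cyp46a1 -0.08 over the 4 arrays, and Cyp7a1, Cyp7b1 and Cyp46a1 were below background there in both channels.

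**Figure D3:**
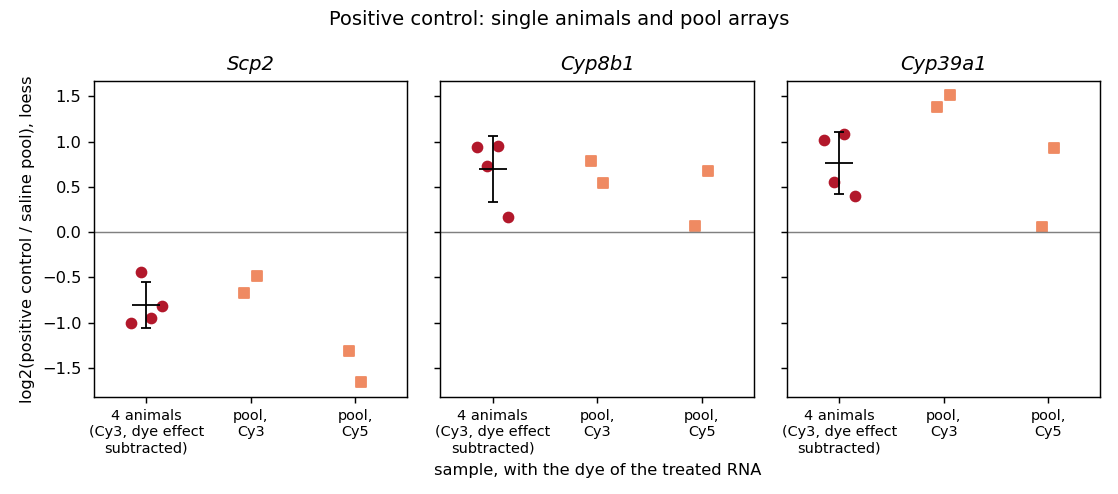
Log2 ratio of positive control over saline pool after loess normalization for Scp2, Cyp8b1 and Cyp39a1. Circles are the 4 single animals, with mean and SD, and squares are the pool arrays by the dye of the treated RNA. The sign is the same in all 3 columns, and the size differs between dyes. Cyp8b1 and Cyp39a1 were below background in both channels of the pool arrays with treated RNA in Cy5.

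The size of the single-animal values also depended on how each array was scaled. Without loess, centring the arrays on their calibration spots, their luciferase spots or 3 reference genes (Actb, Gapdh and Ppia) shifted the median of all 120 probes in the positive control to -0.59, -0.57 and -0.52. The ratios are therefore also given relative to that median. Each centring without loess moves all probes of an array alike, so relative to the median these centrings give the same value. Cyp39a1 stood 0.76 above the median after loess and 1.24 above it without, and Cyp8b1 0.70 and 1.07 above it. Cyp7a1 stood at -0.21 and -0.20 relative to the median. Scp2 turned round: in the animals it stood 0.80 below the median after loess but 0.25 above it without loess. Cyp27a1, whose saline channel was below background on all 4 of the single arrays, stood 0.10 below the median after loess and 0.25 above it without. On the pool arrays, where the dyes are balanced, Scp2 stood 1.03 below the median after loess and 0.91 below it without, averaged over both dyes. With median centring the pool arrays gave -0.37 and 0.53 in Cy3, and -2.27 and -1.42 in Cy5. The lower Scp2 of the single animals thus rests on the loess step, while the mean of the pool arrays lay below the median with loess and without it.

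**Figure D4:**
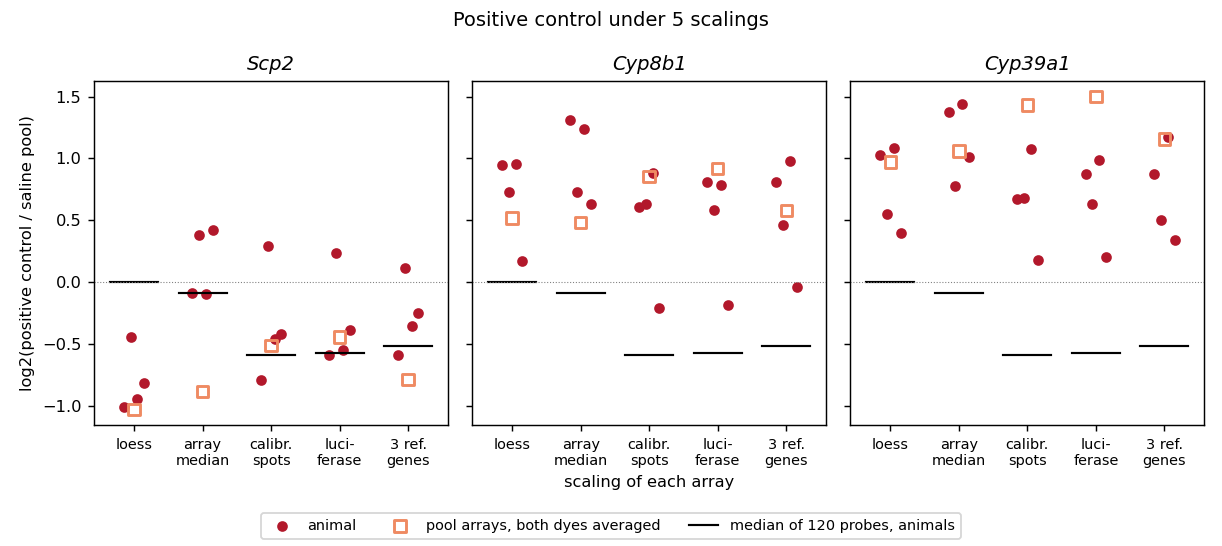
Log2 ratio of positive control over saline pool under 5 scalings (x axis). Circles are animals, open squares the mean of the pool arrays over both dyes, and black lines the median of all 120 probes in the animals; the mean of the animals lies above the line for Cyp8b1 and Cyp39a1 under each scaling, and below it for Scp2 only after loess. Relative to the line, the scalings without loess give the same mean by construction. The line does not apply to the pool squares.

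After adefovir dipivoxil, none of the 7 genes passed. Limma called 0 of 7, against 1.67% of all 120 probes, and 2 of the 7 had an unadjusted p under 0.05. The median log2 ratio was -0.08 over the 7 genes and -0.00 over all probes.

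In the classic route, Cyp7a1 lay between -0.22 and 0.04 in the 5 adefovir animals, with a mean of -0.05 (95% interval -0.19 to 0.08, adjusted p = 0.825). Cyp8b1 had 0.39, -0.32, 0.67, -0.16 and -0.48, a mean of 0.02 (SD 0.49, 95% interval -0.39 to 0.43, adjusted p = 0.991). Its animals lay on both sides of 0 and spread more than those of any of the other 6 genes. In the alternative route, Cyp27a1 averaged -0.00 (-0.21 to 0.20) and Cyp7b1 -0.13 (-0.26 to -0.00, adjusted p = 0.391). Cyp7b1 was below background in both channels of all 10 adefovir arrays, so its value measures no level of this RNA.

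Cyp39a1 had -0.35, -0.28, -0.26, -0.45 and 0.11, a mean of -0.25 (SD 0.212, 95% interval -0.45 to -0.04, adjusted p = 0.391). Treated RNA was above background on 0 of 10 arrays and saline RNA on 1 of 10, so the value concerns a level the array hardly measured. Scp2 had -0.09, -0.12, 0.07, -0.06 and -0.23 (mean -0.09, 95% interval -0.25 to 0.07, adjusted p = 0.699). Cyp46a1 averaged -0.08, below background throughout.

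After tenofovir disoproxil, none of the 7 genes passed either, and Cyp8b1 had the lowest mean. Limma called 0 of 7, against 1.67% of all 120 probes, with 1 of the 7 at an unadjusted p under 0.05. The median log2 ratio was -0.05 over the 7 genes and 0.02 over all probes.

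Cyp8b1 had -0.67, -0.44, -1.31, 0.00 and 0.03 in tenofovir animals 1 to 5. The mean was -0.48 (SD 0.551, SE 0.192, 95% interval -0.89 to -0.06, n = 5, unadjusted p = 0.0262, adjusted p = 0.203 by limma). Animals 1 to 3 were low and animals 4 and 5 at 0. With treated RNA in Cy3 the 5 animals had -1.30, -0.63, -1.78, -0.13 and -0.17, and with treated RNA in Cy5 -0.04, -0.25, -0.83, 0.14 and 0.22. In Cy5 the treated channel was below background in animals 1 to 4, so that orientation hardly measured the gene in treated RNA. The lower orientation was the same in all 5 animals, and the arrays with treated RNA in Cy3 alone gave a call (-0.80, adjusted p = 0.0121).

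None of the other genes had an unadjusted p under 0.05 after tenofovir. Cyp7a1 lay between -0.06 and 0.15 (mean 0.01, 95% interval -0.13 to 0.14), Cyp7b1 between -0.29 and 0.11 (mean -0.05) and Cyp39a1 between -0.16 and 0.08 (mean -0.04). Cyp27a1 had -0.51 in animal 1 and -0.06 to 0.13 in the others (mean -0.06, 95% interval -0.27 to 0.14). Scp2 had 0.01, 0.07, -0.30, -0.03 and -0.11 (mean -0.07, 95% interval -0.23 to 0.09, adjusted p = 0.718).

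Adefovir and tenofovir are acyclic phosphonates of adenine that differ by a methyl group on the side chain of tenofovir, and their prodrug groups differ as well. They were compared as 1 pair, both at 25 mg/kg and with the same schedule. Adefovir minus tenofovir passed for 0 of 7 genes and for 0% of 120 probes by limma, and 0 of the 7 had an unadjusted p under 0.05. Cyp8b1 had the widest difference, 0.50 (95% interval -0.09 to 1.08, adjusted p = 0.983), from a mean of 0.02 after adefovir and -0.48 after tenofovir, and the animals overlapped. The difference was -0.20 for Cyp39a1 (-0.49 to 0.09), -0.02 for Scp2 (-0.24 to 0.21), 0.06 for Cyp27a1 (-0.23 to 0.35) and -0.06 for Cyp7a1 (-0.26 to 0.13). These intervals leave room for differences in either direction and do not show that the compounds act alike.

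The positive control was also set against the mean of both antivirals, which share its saline pool but not its single dye orientation. Here 3 of 7 genes passed, Cyp39a1 and Cyp8b1 higher and Scp2 lower, against 36.7% of 120 probes, 20% higher and 16.7% lower. Cyp8b1 averaged 0.70 in the positive control and -0.23 after the antivirals, a difference of 0.93 (SE 0.255, 95% interval 0.38 to 1.47, adjusted p = 0.00905), and the call held with each of the 14 animals left out. It was lost with calibration-spot centring (0.49, adjusted p = 0.0633) and with the dye effect of the pool arrays (0.58, adjusted p = 0.0885). Cyp39a1 averaged 0.76 and -0.14, a difference of 0.91 (SE 0.126, adjusted p = 4.22e-05), lost with calibration-spot centring (0.51, adjusted p = 0.0543). Scp2 averaged -0.80 and -0.08, a difference of -0.72 (SE 0.0991, adjusted p = 4.17e-05). That difference turned to 0.29 (adjusted p = 0.159) with centring on the array median and was not called with any of the other 3 centrings without loess (-0.41 to -0.13). Cyp7a1 differed by -0.18 (adjusted p = 0.103), Cyp7b1 by 0.18 (adjusted p = 0.0938), Cyp46a1 by -0.11 and Cyp27a1 by -0.07, none past the threshold.

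The routes were set against each other within each animal as the mean log2 ratio of Cyp7a1 and Cyp8b1 minus that of Cyp27a1 and Cyp7b1, as a description with no test. In the positive control the 2 classic genes had means of opposite sign, -0.21 for Cyp7a1 and 0.70 for Cyp8b1, so their mean describes no joint shift. The route difference there was 0.44, 0.26, 0.30 and 0.02, above 0 in 4 of 4 animals, with a mean of 0.25 (SD 0.174). Without the dye effect subtracted animal 4 was at -0.13, and the mean was 0.10. After adefovir it was 0.20, 0.00, 0.52, 0.01 and -0.48 (mean 0.05, SD 0.363), and after tenofovir -0.17, -0.17, -0.69, 0.12 and 0.03 (mean -0.18, SD 0.316). Since Cyp7a1 and Cyp7b1 were dim, Cyp8b1 minus Cyp27a1 was taken as well. Cyp8b1 and Cyp27a1 were themselves below background in the saline channel of all 4 single positive-control arrays. Their difference was 1.09, 1.04, 0.74 and 0.34 in the positive control (mean 0.80, SD 0.348). It was 0.02 on average after adefovir (SD 0.528) and -0.41 after tenofovir (SD 0.591). With the dye effect of the pool arrays the positive control had 0.53, 0.48, 0.18 and -0.22 (mean 0.24), so its sign in animal 4 depended on that correction. With the dye effect of the antiviral arrays all 4 positive-control animals were above 0, with adefovir animals overlapping that range and tenofovir animals at most at 0.00.

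**Figure D5:**
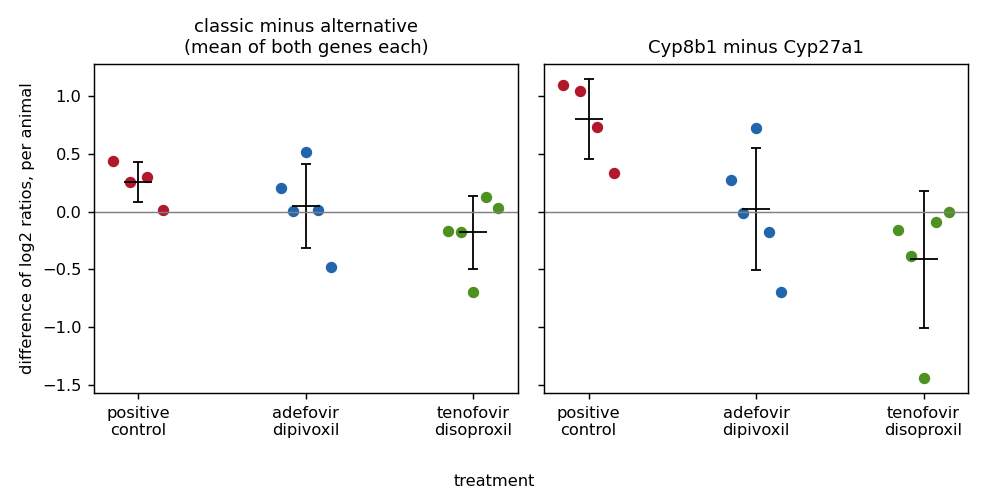
Difference of log2 ratios in each animal, with mean and SD, for the classic minus the alternative route (left) and for Cyp8b1 minus Cyp27a1 (right). With the dye effect of the antiviral arrays subtracted, the 4 positive-control animals lie above 0 in both panels, and the tenofovir animals at or below 0.00 in the right panel.

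Of 23 listed regulators of bile acid genes, 14 were on the array and 8 above background on most arrays. In the positive control 2 of the 14 fell, 0 rose and 12 did not pass, against 20% lower and 21.7% higher among all 120 probes, with a median log2 ratio of -0.03. Cebpa, a liver-enriched transcription factor, fell by 0.41 (SE 0.133, adjusted p = 0.0221), and Ppargc1a, a coactivator of the fasting response, by 0.38 (SE 0.0941, adjusted p = 0.00457). The bile acid receptor gene Nr1h4 had -0.17 (adjusted p = 0.171), Nr5a2, whose product binds the Cyp7a1 and Cyp8b1 promoters, 0.18 (adjusted p = 0.052), and Hnf4a 0.02. The repressor gene Nr0b2 was below background in both channels of all single-animal arrays. The saline channel of the 4 single positive-control arrays was above background on 1 of 4 for Cebpa and on 0 of 4 for Ppargc1a. The mean of the pool arrays over both dyes, after loess, was -0.29 for Cebpa and -0.24 for Ppargc1a. The regulators were not examined under other scalings or dye corrections. Against the mean of both antivirals, Ppara, a fatty acid receptor gene, also passed as lower (-0.43, adjusted p = 0.0384). It did not pass against saline (-0.20, adjusted p = 0.235 by limma). On the single positive-control arrays Ppara was above background in 2 of 4 treated and 0 of 4 saline channels. None of the 14 passed after adefovir or tenofovir.

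Of 14 listed transporters of bile acids and biliary lipids, 8 were measured and 7 stood above background on most arrays. In the positive control 1 rose, 3 fell and 4 did not pass, with a median of -0.12. Over all 120 probes 41.7% passed, 21.7% higher and 20% lower. Abcc3, which exports bile acids and conjugates to the blood, rose by 1.18 (SE 0.121, adjusted p = 1.53e-06). Slc10a1, the main importer of bile acids from the blood, fell by 0.70 (SE 0.0679, adjusted p = 1.30e-06), and Abcg8, part of the sterol exporter of the canalicular membrane, by 0.38 (SE 0.086, adjusted p = 0.00265). Slco1a1 passed as lower at -0.32 but was below background in both channels of all 4 arrays. Abcb11, the bile salt export pump, had 0.18 (adjusted p = 0.171) and Abcc2 -0.06. The saline channel of these arrays was above background on 1 of 4 for Slc10a1 and on 0 of 4 for Abcc3 and Abcg8. The mean of the pool arrays over both dyes, after loess, was -0.68 for Slc10a1, 1.37 for Abcc3 and -0.27 for Abcg8. The transporters were not examined under other scalings or dye corrections. None of the 8 passed after adefovir or tenofovir. Of 12 further enzymes of bile acid synthesis only Ch25h was measured, and it was below background on most arrays.

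Likeness of pattern was measured as Pearson's r of the log2 ratios over the 14 animals, among 62 other named probes above background on most arrays. It was taken for the 3 genes that met the same filter, which asks for either channel. For Cyp8b1 and Cyp27a1 the saline channel was above background on 0 of 4 single positive-control arrays. Scp2 was most like Cyp2f2 (r = 0.90), Cyp4b1 (0.89) and Alas1 (0.88). Cyp8b1 was most like the cholesterol synthesis genes Fdft1 (0.83), Cyp51 (0.79) and Dhcr7 (0.74). For Cyp27a1 the values were lower, 0.60 with Hnf4a, 0.56 with Abcc2 and 0.52 with Abca1. With the group means removed, r was 0.43, 0.37 and 0.65 for the Scp2 list, 0.63, 0.48 and 0.47 for the Cyp8b1 list, and 0.61, 0.57 and 0.68 for the Cyp27a1 list. All points share 1 saline pool and the same arrays.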

How the data were processed

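Liver RNA of 14 treated mice and of the positive-control pool was hybridised with saline pool RNA on 28 arrays. Per the file headers, each deposited file gives the median intensity of every spot in both channels, beside its local background (median and SD). These intensities were not normalized. The authors also deposited a series table of log ratios, read as log2 and used as an alternative. Its columns followed the scanner ratios (r 0.677 to 0.965 over probes, median 0.886), so its direction is treated over saline. Its slope on the scanners' log2 ratios, over probes above background in both channels, had a median of 0.796 (0.427 to 1.10 over 27 arrays), which does not settle the base of the logarithm, taken here as 2. Its column medians ran from -1.54 to 0.936, and how it was centred is not known. It held values for at most 6 of the 7 genes on any array.

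Statistics were run with limma 3.58.1 in R 4.3.3 and plots drawn with matplotlib 3.10.9 in Python 3.11.15. Background was corrected by normexp with an offset of 50, loess (span 0.3, fitted on gene spots) was applied within each array, and the 3 spots of a probe were averaged. The 2 dye-exchanged arrays of an antiviral animal were averaged. These exchanges gave a dye effect for every probe, which was subtracted on the single positive-control arrays because they have 1 orientation. It correlated at r = 0.510 over probes with the dye effect on the pool arrays. A model with 1 mean per group over 14 animals was fitted with eBayes, with Benjamini-Hochberg adjustment at 0.05 over 120 probes. Pool arrays entered no test. Dye orientation coincides with slide position, and each slide holds 1 animal. Limits on ratios used the loess and Aquantile scale. The steps were run on simulated data with equal background in both channels and no weak saline channel. That run does not bear on the marked Cy5 channel of the single positive-control arrays.

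Members, gene lists and alternatives were chosen with earlier results of these data known. Genes other than the 7 are named where they passed in a contrast or were among the 3 brightest of their list, and neighbours are the 3 highest r. Nr5a2 and Nr0b2 were named after their values were seen. Hnf4a and Abcc2 did not meet the rule for their lists, where each ranked 4 in brightness, and are named as well. The 10 probes without a gene in the platform's annotation are counted and not named. Promoter windows come from RefSeq, GRCm38.p6. The probes' sequences were not used here, so the Scp2 transcript each spot binds is not given. The number of arrays limits the precision.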

Additional observations from a re-analysis of the deposited data

Results flagged for a closer look

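In 21 groups of 4 or 5 animals, 7 genes in 3 treatments, 1 value lay far from the rest of its group. Cyp46a1 in positive-control animal 2 had a log2 ratio of -0.036, whereas the other 3 animals lay between -0.20 and -0.18. Chance gives about 1 such value in 20 groups. Cyp46a1 was below background in both channels of all 4 arrays, and the call of this gene in the positive control was lost without each of the other 3 animals.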

How the results depend on the processing

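Over 690 single-gene values under alternative settings, 635 kept their side of the threshold with no called value turned, 32 lost a call, 17 gained one and 6 turned sign with a call on either side; a further 83 of the 635 turned sign without a call. In the positive control the count of 5 genes past the threshold fell to 2 with median centring, with the dye effect of the pool arrays, with array weights, with the filter on dim probes (3 genes tested) and in the authors' deposited series table (2 tested). It fell to 3 without the dye effect, with a random block for animals, with the group fitted alone, and among probes above background in the group itself (4 tested), an alternative chosen after seeing the data, and was 3 to 4 with an animal left out. Cyp39a1 kept its call under all 13 alternatives that could test it (0.46 to 1.27). Cyp8b1 lost it without the dye effect (0.49), with that of the pool arrays (0.35) and with array weights (0.69). Scp2 lost it with centring on calibration spots (-0.34), luciferase (-0.32) or the 3 reference genes (-0.27), and turned to 0.156 with median centring. Against the mean of both antivirals Scp2 turned to 0.29 with median centring, and the count of 3 genes became 5 with luciferase centring and was 3 to 4 with an animal left out. With calibration spots it was also 3, but these were Cyp7a1, Cyp7b1 and Cyp46a1, all lower, while Cyp8b1 (0.49), Cyp39a1 (0.51) and Scp2 (-0.41) lost their calls; Scp2 lost it as well with luciferase and the 3 reference genes. Cyp8b1 minus Cyp27a1 in the positive control moved to 0.24 with the dye effect of the pool arrays, which was applied to this difference after seeing the data. Cyp7b1 turned to -0.601 with calibration spots and -0.539 with luciferase against the antivirals, and to -0.374 with luciferase against saline, where the median of all probes moved to -0.57. Cyp46a1 turned to 0.074 without background correction. After tenofovir the count of 0 became 2 on arrays with treated RNA in Cy3 alone (Cyp8b1 and Cyp7a1). After adefovir it became 3 on arrays in Cy5 alone (Cyp7b1, Cyp39a1 and Cyp46a1) and 1 with array weights (Cyp39a1); with an animal left out it stayed 0 for both. The causes were not tested. Same-numbered adefovir and tenofovir animals did not deviate together (r -0.21 to 0.27), so the numbers do not pair them, and with the replicate block the count between the antivirals was 0.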
